A study of Homo sapiens with 8 samples.

Results

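Genes of activin, follistatin, BMP and TGF-β signalling were followed through an inflammatory stimulus and the loss of HDAC6 in SW1353 cells, an established human chondrosarcoma line often used in place of chondrocytes. The 10 genes were INHBA, FST, FSTL1, BMP2, BMP4, GREM1, TGFB1, TGFB2, SMAD3 and SMAD7, and every array probe annotated to any of them was taken. They were measured by 14 of the 48803 probes of the array. All cells received an siRNA 24 h before the stimulus, so the unstimulated control also carries a transfection. The 4 groups were the non-targeting AllStars siRNA alone (siCon), the same with IL-1alpha for 6 h (siCon + IL-1), a QIAGEN siRNA against HDAC6 alone (siHDAC6) and the latter with IL-1alpha for 6 h (siHDAC6 + IL-1). There were 2 arrays in each group and 8 in all. The arrays were duplicate treatments of 1 tumour line with 1 HDAC6 siRNA product, so p-values measure the spread between these samples, and effects of HDAC6 loss and of that siRNA cannot be told apart.

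Activins, BMPs and TGF-β proteins are secreted dimers of a shared superfamily. They bind pairs of serine/threonine kinase receptors at the cell surface, which phosphorylate receptor SMAD proteins that enter the nucleus and regulate transcription. Follistatin and gremlin are secreted antagonists that capture the ligands outside the cell, and inhibitory SMADs act as feedback inside it. In cartilage, TGF-β and activin signalling through SMAD3 is known to maintain the articular chondrocyte phenotype, while BMPs are known for driving chondrocyte differentiation and matrix synthesis. IL-1 is an inflammatory cytokine that makes chondrocytes express matrix-degrading proteinases, and HDAC6 is a mainly cytoplasmic deacetylase whose best known substrate is tubulin.

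The knockdown was visible on the arrays. The log2 signal of HDAC6 was 6.36 and 6.32 in siCon, 6.63 and 6.46 in siCon + IL-1, 5.14 and 4.87 in siHDAC6, and 4.84 and 4.87 in siHDAC6 + IL-1, where it was not well above background on either array. It was 2.53-fold lower with siHDAC6 in unstimulated cells (adjusted p = 0.0020), where 1 of the 2 siHDAC6 arrays detected it, and at least 3.003-fold lower in stimulated cells (adjusted p = 6.2e-04). Between 14315 and 16659 probes were detected per array (detection p under 0.05), and the lowest log2 signal of a detected probe was 4.90 to 5.17. Of 9 chondrocyte markers, 3 (SOX9, COL11A1 and HAPLN1) were detected on all 8 arrays, 3 on some and 3 (ACAN, COMP and MATN3) on none, while 4 of 5 mesenchymal markers were detected on all arrays and 0 of the 4 leukocyte markers measured were detected on any. Of the 3 endothelial markers VWF was detected on 7 arrays, PECAM1 on 1 and CDH5 on none, and of the 4 epithelial markers KRT18 was detected on all 8, EPCAM on 5, and CDH1 and KRT5 on none. Each signal is a mean over the cells of a culture, so a change in the share of cells and a change in RNA per cell cannot be told apart.

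Of the 10 genes, 7 were detected on at least 2 arrays and tested with the 11182 genes that passed this filter: FST, FSTL1, BMP2, BMP4, TGFB2, SMAD3 and SMAD7. The probes of INHBA (1 probe), GREM1 (2 probes) and TGFB1 (1 probe) were not well above background on any array. In siCon cells IL-1 raised 3 of the 7 (FST, BMP2 and SMAD3) and lowered 1 (BMP4) at an adjusted p under 0.05 in limma, where 9.37% of all tested genes rose and 11.2% fell (20.6% called). In siHDAC6 cells the same 4 genes were called in the same directions, where 5.99% of all genes rose and 4.27% fell (10.3% called). With siHDAC6 in unstimulated cells 1 gene rose (FST) and 1 fell (BMP2), against 1.64% and 2.41% of all genes (4.05% called). With siHDAC6 in stimulated cells 1 rose (TGFB2) and 3 fell (FST, FSTL1 and BMP2), against 3.65% and 4.42% of all genes (8.07% called). The IL-1 response itself differed between siCon and siHDAC6 cells for 1 gene, FST, where it was smaller with siHDAC6, against 0.107% of all genes called lower, 0.00894% called higher and 0.116% called in either direction. The median log2 change of the 7 genes was 0.53 for IL-1 in siCon cells, 0.29 for IL-1 in siHDAC6 cells, -0.04 for siHDAC6 without IL-1 and -0.33 for siHDAC6 with IL-1, beside -0.09, -0.06, 0.01 and 0.03 over all tested genes. These comparisons share arrays in pairs, and each is given with its own values. The 10 genes were chosen with earlier results of these data known, and the shares called were not tested. With 2 arrays in each group, groups can lie apart without a call. How many of all tested genes do so was not counted.

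**Figure D1:**
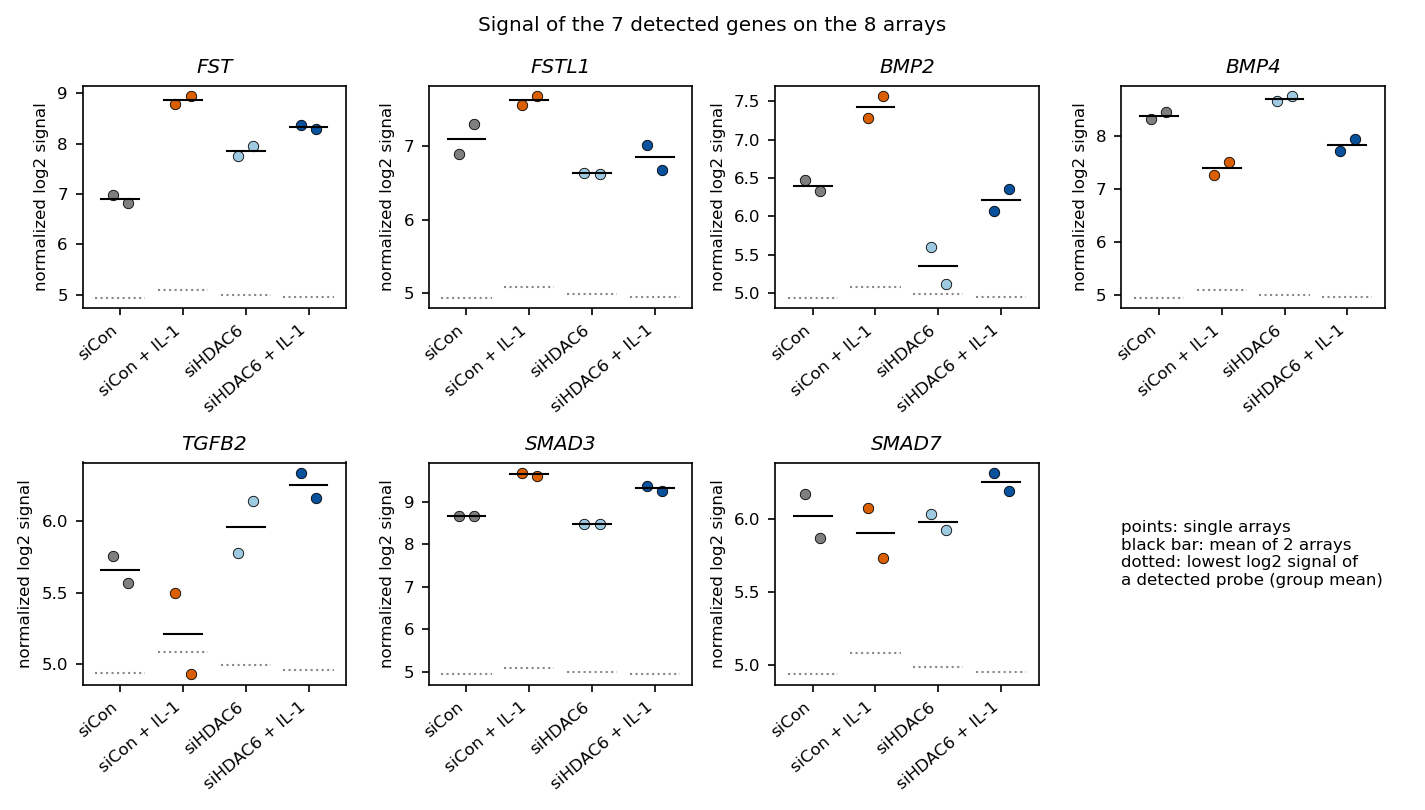
Normalized log2 signal of the 7 detected genes (y axis, own range for each gene) in the 4 groups (x axis), with points for single arrays, a black bar for the mean of 2 arrays and a dotted line for the lowest log2 signal of a detected probe. FST has no overlap between any groups, BMP4 is lower in both IL-1 groups, SMAD3 is higher in both, and the TGFB2 array at 4.93 in siCon + IL-1 lies under the detection line.

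In the activin branch, FST was called in every comparison. FST encodes follistatin, which binds activins almost irreversibly and BMPs more weakly, and lies at chr5:53480629-53487134 of GRCh38.p14. Its log2 signal, the mean of 2 probes, was 6.98 and 6.82 in siCon, 8.79 and 8.95 in siCon + IL-1, 7.76 and 7.95 in siHDAC6, and 8.36 and 8.30 in siHDAC6 + IL-1. The groups did not overlap: siCon was lowest, siHDAC6 next, then siHDAC6 + IL-1, and siCon + IL-1 highest. IL-1 raised FST by 1.97 on the log2 scale in siCon cells (SE 0.12, 3.92-fold, adjusted p = 1.9e-05) and by 0.47 in siHDAC6 cells (SE 0.12, 1.39-fold, adjusted p = 0.045). With siHDAC6 it was higher by 0.96 without IL-1 (1.94-fold, adjusted p = 0.0057) and fell by 0.54 with IL-1 (1.45-fold, adjusted p = 0.036). The siRNA therefore moved FST in opposite directions in unstimulated and stimulated cells, and the IL-1 response differed between them by -1.49 (SE 0.17, 95% interval -1.89 to -1.10, adjusted p = 0.028).

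The response of FST to IL-1 in siCon cells was called in all 8 fits that left out 1 array, and its other calls were not. The difference of the responses kept its size (-1.59 to -1.40) but was not called in any of the 8 fits (adjusted p = 0.061 to 0.19). The rise with siHDAC6 in unstimulated cells was lost without siCon replicate 2 (adjusted p = 0.057) or siHDAC6 replicate 2 (0.053). The fall with siHDAC6 in stimulated cells was lost without either siCon, siCon + IL-1 or siHDAC6 + IL-1 array (0.054 to 0.16), and the response in siHDAC6 cells without either siCon, siHDAC6 or siHDAC6 + IL-1 array (0.064 to 0.22). With median scaling in place of quantile normalization the difference was -1.24 (adjusted p = 0.36), the change with siHDAC6 in stimulated cells -0.37 (0.57) and the response in siHDAC6 cells 0.53 (0.39). On the authors' log2 values all 5 changes of FST were called, at 1.34 and 0.29 for IL-1 in siCon and siHDAC6 cells, 0.62 and -0.43 for siHDAC6 without and with IL-1, and -1.05 for the difference.

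The 2 FST probes are annotated to different RefSeq transcripts and were both detected on all 8 arrays. Probe ILMN_1700081 read 8.45 and 8.65 in siCon, 10.67 and 10.73 in siCon + IL-1, 9.77 and 9.66 in siHDAC6, and 10.07 and 10.01 in siHDAC6 + IL-1. Its groups followed the order of the averaged gene, with a difference of the IL-1 responses of -1.82 (SE 0.17, adjusted p = 0.011 over all probes). Probe ILMN_1712896 read 5.51 and 4.99 in siCon, 6.90 and 7.16 in siCon + IL-1, 5.75 and 6.25 in siHDAC6, and 6.65 and 6.59 in siHDAC6 + IL-1. On siCon replicate 2 its detection p was 0.047, and the lowest log2 signal of a detected probe there was 4.97. Its changes against siCon therefore start near background. The group order was the same, and the difference was -1.17 (SE 0.31, adjusted p = 0.32). For this probe only the rise with IL-1 in siCon cells was called (1.79, adjusted p = 9.6e-04), and the siHDAC6 changes were 0.75 without IL-1 (0.12) and -0.41 with IL-1 (0.30). For ILMN_1700081 they were 1.17 (0.0034) and -0.66 (0.019). Whether the probes differed from each other was not tested.

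**Figure D2:**
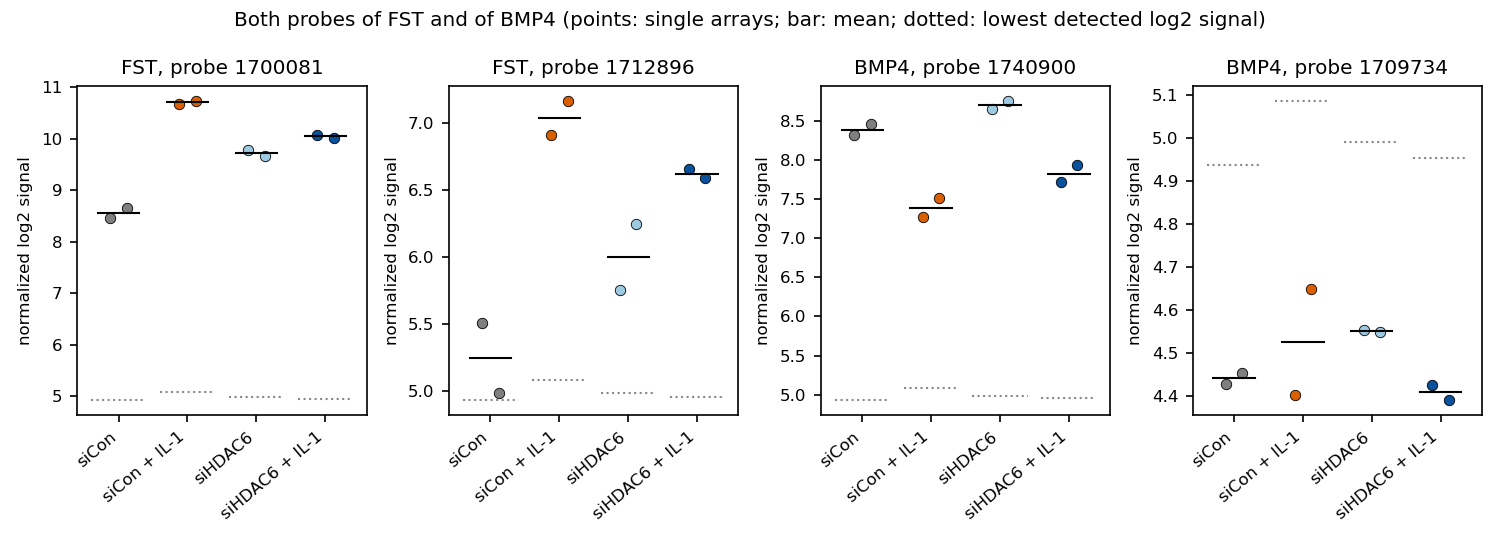
Normalized log2 signal of each probe of FST and of BMP4 (y axis, own range for each probe) in the 4 groups (x axis), with points for single arrays, a bar for the mean and a dotted line for the lowest log2 signal of a detected probe. Both FST probes are highest in siCon + IL-1 and lowest in siCon, while BMP4 probe ILMN_1709734 stays between 4.39 and 4.65, under the line in every group.

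The promoter of FST is shown because FST had the largest IL-1 response of the 7 genes in siCon cells. The window runs from 250 bases before to 50 bases after the RefSeq start (GRCh38.p14, chr5:53480379-53480678, plus strand). Capitals mark matches on either strand to a loose AP-1 motif, TGANTCA with any base at N, and to the NF-κB consensus. IL-1 signalling is known to activate the factors of these motifs.
FST: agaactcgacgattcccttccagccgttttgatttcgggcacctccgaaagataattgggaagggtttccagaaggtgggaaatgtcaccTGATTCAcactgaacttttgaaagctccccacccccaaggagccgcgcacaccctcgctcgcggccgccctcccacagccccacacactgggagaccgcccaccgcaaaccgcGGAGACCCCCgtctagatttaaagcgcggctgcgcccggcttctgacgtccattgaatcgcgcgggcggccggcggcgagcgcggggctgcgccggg
The AP-1 match, TGATTCA, begins 160 bases before the start and the NF-κB match, on the minus strand, 47 bases before it. Of all 34796 RefSeq windows of this length, 7.73% held the AP-1 motif and 5.91% the NF-κB consensus. The SMAD motif CAGAC, which 45.3% of windows hold, was searched on both strands too and is not in this FST window. These are matches of letters and not measured sites.

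Of the genes with a probe detected on each of the 8 arrays, the 3 with the pattern most like that of FST were STARD5, JADE2 and PDGFRL. Their root mean square differences from FST over the 8 centred log2 values were 0.18, 0.23 and 0.23, where the median over 8622 genes was 0.78. The group means of STARD5 were 4.78 in siCon, 6.35 in siCon + IL-1, 5.58 in siHDAC6 and 6.06 in siHDAC6 + IL-1, the same order as FST. PDGFRL had the same order (7.02, 8.81, 7.73 and 8.13), while JADE2 was about as high in siHDAC6 + IL-1 (7.28) as in siCon + IL-1 (7.26). The siCon mean of STARD5 was under the lowest log2 signal of a detected probe on the siCon arrays (4.90 and 4.97). Its level in that group is therefore near background.

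INHBA, which encodes the βA subunit of activin A, the main ligand of follistatin, lies at chr7:41685114-41705406. Its single probe had a detection p of 0.21 to 0.95 and a log2 signal of 4.30 to 4.57 over the 8 arrays, with no group above background, so no fold change is given and no gene of like pattern could be sought. FSTL1 encodes a secreted glycoprotein related to follistatin by sequence and lies at chr3:120392293-120450992. Its log2 signal was 6.90 and 7.30 in siCon, 7.57 and 7.69 in siCon + IL-1, 6.64 and 6.63 in siHDAC6, and 7.02 and 6.68 in siHDAC6 + IL-1. Both siHDAC6 + IL-1 arrays were below both siCon + IL-1 arrays and overlapped with siCon. In stimulated cells FSTL1 fell by 0.78 with siHDAC6 (SE 0.17, 1.71-fold, adjusted p = 0.031), and in unstimulated cells the change was -0.47 (adjusted p = 0.17). The first call was lost without either siCon + IL-1, siHDAC6 or siHDAC6 + IL-1 array (adjusted p = 0.055 to 0.16) and with median scaling (-0.58, adjusted p = 0.27). The change with IL-1 was 0.53 in siCon cells (adjusted p = 0.060) and 0.22 in siHDAC6 cells (0.47), and the difference between them was -0.31 (95% interval -0.85 to 0.23, adjusted p = 0.72). The change in siCon cells was 0.32 without siCon replicate 1 (adjusted p = 0.28) and 0.73 without siCon replicate 2, where it was called (0.040). On the authors' own log2 values it was 0.30 and was called (adjusted p = 0.029).

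IL-1 raised BMP2 and lowered BMP4. BMP2, a ligand that induces cartilage and bone formation, lies at chr20:6767686-6780246. Its log2 signal was 6.48 and 6.33 in siCon, 7.28 and 7.57 in siCon + IL-1, 5.60 and 5.12 in siHDAC6, and 6.07 and 6.36 in siHDAC6 + IL-1. The siHDAC6 arrays were the lowest, the siCon + IL-1 arrays the highest, and siHDAC6 + IL-1 overlapped with siCon. IL-1 raised BMP2 by 1.02 in siCon cells (SE 0.19, 2.03-fold, adjusted p = 0.0072) and by 0.86 in siHDAC6 cells (1.81-fold, adjusted p = 0.026). The difference between these responses was -0.17 (95% interval -0.78 to 0.44, adjusted p = 0.89), an interval that does not exclude a response smaller or larger by that much in siHDAC6 cells. With siHDAC6, BMP2 fell by 1.04 without IL-1 (2.06-fold, adjusted p = 0.025) and by 1.21 with IL-1 (2.32-fold, adjusted p = 0.010). Each call was lost in some of the fits that left out 1 array. For IL-1 in siCon cells this was siCon replicate 2 (adjusted p = 0.052). For IL-1 in siHDAC6 cells it was siHDAC6 replicate 2 (0.13) or either siHDAC6 + IL-1 array (0.061 and 0.15). For siHDAC6 without IL-1 it was either siCon array (0.14 and 0.11) or siHDAC6 replicate 2 (0.12), and with IL-1 it was replicate 2 of siCon + IL-1 (0.057) or replicate 1 of siHDAC6 + IL-1 (0.074). On the authors' log2 values all 4 calls were kept with smaller sizes, 0.55, 0.29, -0.36 and -0.63 in the order given.

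BMP4, a related ligand with roles in mesoderm and skeletal development, lies at chr14:53949736-53956891. Its detected probe read 8.32 and 8.46 in siCon, 7.27 and 7.52 in siCon + IL-1, 8.66 and 8.76 in siHDAC6, and 7.72 and 7.93 in siHDAC6 + IL-1. All 4 IL-1 arrays were below all 4 unstimulated arrays, and within each stimulus the siHDAC6 arrays were the higher ones. IL-1 lowered BMP4 by 1.00 in siCon cells (SE 0.13, 1.99-fold, adjusted p = 0.0014) and by 0.88 in siHDAC6 cells (1.84-fold, adjusted p = 0.0047). Both calls were kept in all 8 fits without 1 array, and the difference between the responses was 0.12 (95% interval -0.32 to 0.55, adjusted p = 0.89). The siHDAC6 changes of 0.32 without IL-1 (adjusted p = 0.24) and 0.43 with IL-1 (adjusted p = 0.087) were not called. The second change was called on the authors' log2 values (0.31, adjusted p = 0.021). A second BMP4 probe, ILMN_1709734, had a detection p of 0.18 to 0.62 and was not above background on any array, so the values of BMP4 rest on 1 probe. GREM1, which encodes the BMP antagonist gremlin, lies at chr15:32718004-32745106, and its 2 probes had detection p-values of 0.099 to 0.79 on all arrays, so only the background level bounds it.

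**Figure D3:**
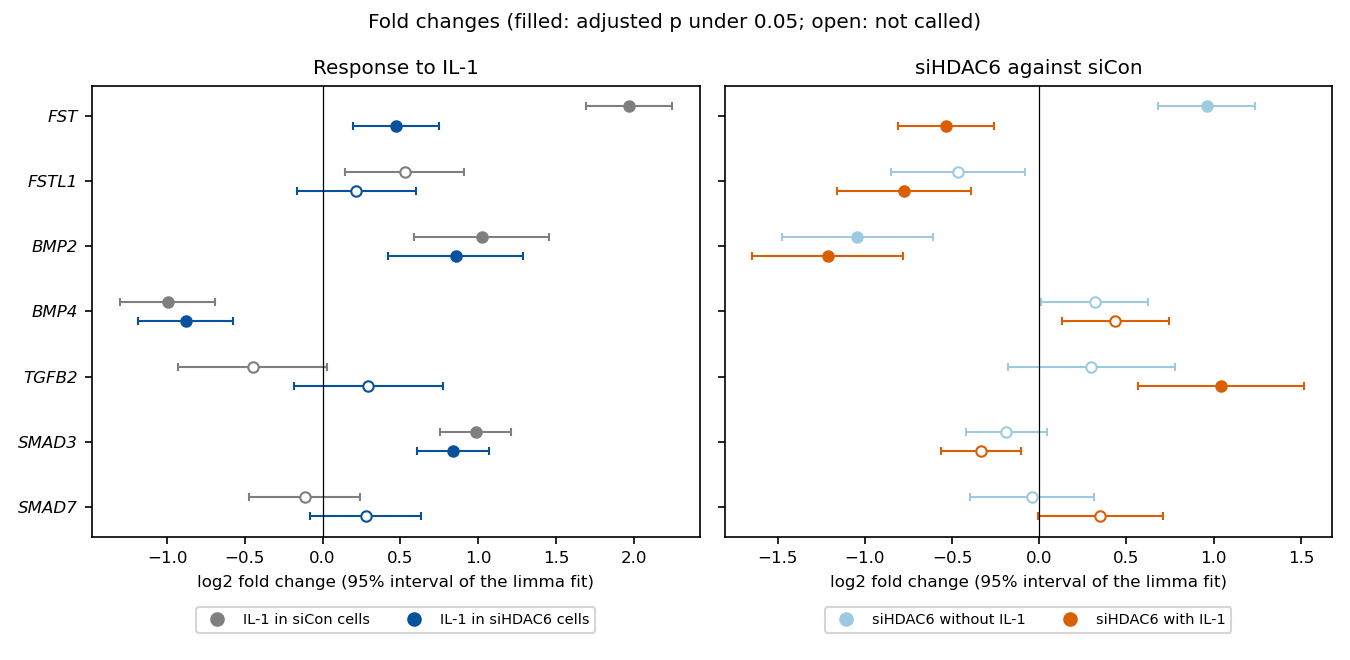
Log2 fold change of the 7 detected genes with the 95% interval of the limma fit (x axis), for IL-1 in siCon and siHDAC6 cells (left panel) and for siHDAC6 against siCon without and with IL-1 (right panel), with filled points at an adjusted p under 0.05. FST lies at 1.97 and 0.47 for IL-1 and on opposite sides of 0 for siHDAC6 (0.96 and -0.54), BMP2 lies below 0 for siHDAC6 in both states, and the IL-1 responses of BMP4 and SMAD3 lie close together in both kinds of cells.

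Of the TGF-β ligands, TGFB2 was near the detection limit and TGFB1 below it. TGFB2, the TGF-β isoform that needs betaglycan for efficient receptor binding, lies at chr1:218345336-218444619. Its log2 signal was 5.76 and 5.57 in siCon, 5.50 and 4.93 in siCon + IL-1, 5.78 and 6.14 in siHDAC6, and 6.34 and 6.16 in siHDAC6 + IL-1. It was detected on 7 arrays and missed on siCon + IL-1 replicate 2, where its detection p-value was 0.082. The siHDAC6 + IL-1 arrays were the highest and the siCon + IL-1 arrays the lowest. No groups overlapped, but siCon (up to 5.76) lay close under siHDAC6 (from 5.78). In the same way siHDAC6 (up to 6.14) lay close under siHDAC6 + IL-1 (from 6.16). In stimulated cells TGFB2 was higher by 1.04 with siHDAC6 (SE 0.21, 2.06-fold, adjusted p = 0.025). Without siCon + IL-1 replicate 2 it was 0.76 and not called (adjusted p = 0.090), and without replicate 1 of that group it was 1.33 (0.019). Without either siHDAC6 + IL-1 array it was 0.95 and 1.13, close to the full value, but not called (0.13 and 0.096). On the authors' log2 values it was 0.32 (adjusted p = 0.010). The other changes were not called, -0.45 with IL-1 in siCon cells (adjusted p = 0.17), 0.29 with IL-1 in siHDAC6 cells (0.43) and 0.30 with siHDAC6 in unstimulated cells (0.49), and the gap between its IL-1 responses was 0.74 (95% interval 0.07 to 1.42, adjusted p = 0.46 over all genes). The first of these ranged from -0.16 without siCon + IL-1 replicate 2 (adjusted p = 0.63) to -0.74 without replicate 1 of that group, where it was called (0.040). TGFB1, the most widely expressed isoform in many tissues, lies at chr19:41330323-41353922, and its single probe was not detected on any array, with detection p-values of 0.18 to 0.91.

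The SMAD genes encode the intracellular arm. SMAD3, the receptor SMAD that carries TGF-β and activin signals to DNA, lies at chr15:67065602-67195169. Its log2 signal was 8.67 and 8.68 in siCon, 9.69 and 9.62 in siCon + IL-1, 8.48 and 8.49 in siHDAC6, and 9.39 and 9.26 in siHDAC6 + IL-1. All 4 stimulated arrays were above all 4 unstimulated arrays, and the siHDAC6 arrays were the lower ones in each state. IL-1 raised SMAD3 by 0.98 in siCon cells (SE 0.10, 1.98-fold, adjusted p = 3.3e-04) and by 0.84 in siHDAC6 cells (1.79-fold, adjusted p = 0.0013), and both calls were kept in all 8 fits without 1 array. The responses differed by -0.15 (95% interval -0.47 to 0.18, adjusted p = 0.79). The siHDAC6 changes of -0.19 without IL-1 (adjusted p = 0.35) and -0.33 with IL-1 (0.082) were not called, and the second was called on the authors' log2 values (-0.31, adjusted p = 0.0061).

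The SMAD3 promoter is shown beside its response to IL-1 in both kinds of cells. RefSeq gives SMAD3 5 start windows, of which the window at the outermost start is printed (GRCh38.p14, chr15:67065352-67065651, plus strand), with capitals for the NF-κB match.
SMAD3: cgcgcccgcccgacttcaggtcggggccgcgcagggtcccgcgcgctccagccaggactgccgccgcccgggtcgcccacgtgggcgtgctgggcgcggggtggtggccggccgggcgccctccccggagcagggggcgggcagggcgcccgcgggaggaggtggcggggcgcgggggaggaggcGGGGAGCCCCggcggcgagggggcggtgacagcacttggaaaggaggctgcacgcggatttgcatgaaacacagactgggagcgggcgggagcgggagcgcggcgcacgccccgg
The match begins 65 bases before the start on the minus strand, and a CAGAC begins at base 7 of the transcript. An AP-1 match was in another of the 5 SMAD3 windows. Of the 9 genes with a window, FST and FSTL1 held the NF-κB consensus besides SMAD3, while the 3 windows of BMP4 held neither it nor the AP-1 motif and each held CAGAC. BMP2 was not matched to a window.

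SMAD7, the inhibitory SMAD that TGF-β induces to end its own signal, lies at chr18:48919853-48950965. The mean log2 signal of its 2 probes was 6.17 and 5.87 in siCon, 6.08 and 5.73 in siCon + IL-1, 6.04 and 5.93 in siHDAC6, and 6.32 and 6.19 in siHDAC6 + IL-1. The first 3 groups overlapped, and only siHDAC6 + IL-1 lay above the rest. No change of SMAD7 was called, the largest being 0.35 with siHDAC6 in stimulated cells (95% interval -0.01 to 0.71, adjusted p = 0.21). Its IL-1 change was -0.11 in siCon cells (adjusted p = 0.65) and 0.28 in siHDAC6 cells (0.32), and the sign of the first turned to 0.04 without siCon replicate 1 and to 0.06 without siCon + IL-1 replicate 2. Probe ILMN_2203891 alone gave -0.10 for IL-1 in siHDAC6 cells where probe ILMN_2203896 gave 0.65 (adjusted p = 0.25), so the averaged rise rested on the latter. The detection p-values of ILMN_2203896 were 0.029 and 0.022 in siHDAC6 and 0.0013 and 0.0026 in siHDAC6 + IL-1. On siCon + IL-1 replicate 2, which is not in this comparison, its detection p-value was 0.14.

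Around these genes, 86 further ligands, receptors, antagonists, SMAD regulators and SMAD-responsive targets were listed, and 53 of them were detected and tested. The listed LTBP2 had no probe under its own symbol and was matched by synonym to LTBP3. The 86 therefore count LTBP3 again, and LTBP2 was not measured. IL-1 in siCon cells raised 7 and lowered 10 of the 53 (32.1% called, against 20.6% of all tested genes), and in siHDAC6 cells it raised 3 and lowered 5 (15.1%, against 10.3%). With siHDAC6, 1 rose and 3 fell without IL-1 (7.55%, against 4.05%), and 4 rose and 6 fell with IL-1 (18.9%, against 8.07%). These shares are a description of the lists and were not tested. The lists were chosen with earlier results of these data known. None was called for the difference of the IL-1 responses in limma, where 9 had an unadjusted p under 0.05 (1 was called on the authors' log2 values). BMPER, counted here and among the named calls, passed the detection filter only through the group where it was high. Its calls are therefore a description with no test. Of the calls, 7 of the 16 named for IL-1 in siCon cells were kept in every fit that left out 1 array, as were 3 of 6 for IL-1 in siHDAC6 cells, 2 of 10 for siHDAC6 with IL-1 and 0 of 4 for siHDAC6 without IL-1.

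Of the 10 ligands tested, IL-1 in siCon cells raised 2 (GDF15 and BMP5) and lowered 2 (INHBB and TGFB3). This makes 4 of the 10 tested, where 20.6% of all genes were called. GDF15, a stress-induced member of the superfamily, was at 9.15 and 9.12 in siCon, 9.98 and 10.08 in siCon + IL-1, 8.57 and 8.55 in siHDAC6, and 9.13 and 9.13 in siHDAC6 + IL-1. It rose by 0.89 with IL-1 in siCon cells (adjusted p = 4.6e-04) and by 0.57 in siHDAC6 cells (0.0080), and fell with siHDAC6 by 0.57 without IL-1 (0.020) and by 0.89 with IL-1 (0.0029). The change in siCon cells and the fall with IL-1 were kept whichever array was left out, while the response in siHDAC6 cells was lost without either siHDAC6 or siHDAC6 + IL-1 array (up to 0.057) and the fall without IL-1 was lost without either siCon or siHDAC6 array (up to 0.12). With median scaling GDF15 kept only its call for IL-1 in siCon cells, and its fall with siHDAC6 and IL-1 was -0.76 (adjusted p = 0.095). TGFB3, the third TGF-β isoform, fell with siHDAC6 by 0.91 without IL-1 (8.12 and 8.16 in siCon against 7.25 and 7.21, adjusted p = 0.0053) and by 0.77 with IL-1 (7.78 and 7.58 against 6.97 and 6.85, adjusted p = 0.0078). The TGFB3 call without IL-1 was lost without siCon replicate 2 or siHDAC6 replicate 2, and the call with IL-1 without siHDAC6 + IL-1 replicate 2. With median scaling the TGFB3 fall with IL-1 was -0.58 and not called (adjusted p = 0.27), and it was not called in the 4-array fit (0.051).

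INHBB, which encodes the activin βB subunit, was detected on 7 arrays. It read 6.03 and 5.87 in siCon, 5.33 and 5.03 in siCon + IL-1, 6.39 and 6.48 in siHDAC6, and 6.11 and 5.66 in siHDAC6 + IL-1. IL-1 lowered it in siCon cells by 0.77 (adjusted p = 0.017), a call lost without either siCon array or siCon + IL-1 replicate 2 (up to 0.099), and with siHDAC6 and IL-1 it was higher by 0.70 (adjusted p = 0.047), a call lost whichever array was left out (0.054 to 0.20). With IL-1 in siCon cells TGFB3 fell by 0.46 (adjusted p = 0.024), a call lost without either siCon array or siCon + IL-1 replicate 2 (up to 0.12). BMP5 was not above background in siCon and was at least 1.33-fold higher with IL-1 (adjusted p = 0.038, lost without either siCon, siCon + IL-1 or siHDAC6 + IL-1 array, up to 0.19). On the authors' log2 values BMP5 changed by 0.13 (adjusted p = 0.12), and it was called in none of 6 other alternatives (0.059 to 0.28): no background correction, an offset of 50, median scaling, eBayes with trend and robust, the 4-array fit and the replicate block. INHBB on the authors' values changed by -0.19 with IL-1 in siCon cells (0.055). Its change with siHDAC6 and IL-1 was 0.18 (0.094). In siHDAC6 cells the ligand lowered by IL-1 was BMP3, at least 1.497-fold (adjusted p = 0.037), named after its values were seen.

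Of the 11 receptors and co-receptors tested, IL-1 in siCon cells raised 2, BMPR2 (0.53, adjusted p = 0.0075) and RGMB (0.54, 0.013), and lowered 2, TGFBR2 (-0.58, 0.0084) and ACVR1 (-0.54, 0.018), 36.4% against 20.6% of all genes called. BMPR2 and TGFBR2 are the type II receptors of BMPs and of TGF-β, ACVR1 is a type I receptor and RGMB a BMP co-receptor. BMPR2 and TGFBR2 kept their calls whichever array was left out but lost them with median scaling (0.36, adjusted p = 0.37, and -0.67, 0.061), RGMB lost its call without siCon replicate 2 or siCon + IL-1 replicate 2 (up to 0.086), and ACVR1 without either siCon array or siCon + IL-1 replicate 1 (up to 0.099). Median scaling also ended the calls of RGMB (0.33, adjusted p = 0.42) and ACVR1 (-0.65, 0.074). ACVR1 was not called in the fit on the 4 arrays compared either (0.052). In stimulated cells siHDAC6 lowered BMPR2 by 0.52 (adjusted p = 0.020) and the activin type I receptor ACVR1B by 0.49 (0.029), and raised TGFBR3, which encodes betaglycan, by 0.70 (0.0073). TGFBR3 read 8.64 and 8.59 in siCon + IL-1 and 9.29 and 9.34 in siHDAC6 + IL-1, and its call was lost without siHDAC6 + IL-1 replicate 2 (0.058). The BMPR2 call was lost when any of the 4 stimulated arrays was left out (up to 0.11), and the ACVR1B call when any of these or either siHDAC6 array was (up to 0.15). Without the detection filter the ACVR1B change was -0.07 (adjusted p = 0.80). In siHDAC6 cells IL-1 raised TGFBR3 by 0.59 (adjusted p = 0.0076, lost without either siHDAC6 array or siHDAC6 + IL-1 replicate 2, up to 0.056) and BAMBI, a decoy receptor named after its values were seen, by 0.60 (0.022). RGMB was the receptor that rose with siHDAC6 in unstimulated cells (0.61, adjusted p = 0.029), lost without either siCon, siHDAC6 or siHDAC6 + IL-1 array (up to 0.16).

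Of the 9 antagonists and latency proteins tested, IL-1 in siCon cells lowered LTBP4. With BMPER, whose call is no test, the share was 22.2%, against 20.6% of all genes called. BMPER, a secreted regulator of BMPs, was above background in siCon + IL-1 alone, where it read 5.27 and 5.34. It passed the detection filter only through this group, so its difference from the others is a description with no test: the level was at least 1.29-fold above that in siCon and at least 1.28-fold above that in siHDAC6 + IL-1. LTBP4 and LTBP3 tether latent TGF-β to the matrix. With IL-1 in siCon cells LTBP4 fell by 0.53 (adjusted p = 0.014, lost without either siCon array or siCon + IL-1 replicate 2, up to 0.074). LTBP3 read 7.04 and 6.80 in siCon, 6.72 and 6.63 in siCon + IL-1, 6.58 and 6.69 in siHDAC6, and 5.81 and 5.81 in siHDAC6 + IL-1. It fell by 0.83 with IL-1 in siHDAC6 cells (adjusted p = 0.0032) and by 0.87 with siHDAC6 in stimulated cells (0.0061, lost without siHDAC6 + IL-1 replicate 2). When its undetected probes were averaged in as well these were -0.18 (0.29) and -0.27 (0.11). With median scaling the second fall was -0.70 and not called (0.14).

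Of the 11 SMADs and SMAD regulators tested, IL-1 in siCon cells raised TGIF1, a transcriptional repressor of SMAD targets, by 0.38 (adjusted p = 0.040) and lowered the inhibitory SMAD6 at least 1.38-fold (adjusted p = 0.032), the latter not being above background in siCon + IL-1. These are 18.2% of the list, against 20.6% of all genes called. The TGIF1 call was lost without either siCon, siCon + IL-1 or siHDAC6 array (up to 0.17) and the SMAD6 call without either siCon or siCon + IL-1 array (up to 0.17). Without the detection filter TGIF1 changed by 0.069 (adjusted p = 0.68), and on the authors' log2 values SMAD6 changed by -0.16 (0.090). No gene of this list was called in the other comparisons in limma, where 2 had an unadjusted p under 0.05 in each of the first 3 and 0 for the difference of the responses.

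Of the 12 SMAD-responsive targets tested, IL-1 in siCon cells lowered 4 and raised 1, 41.7% against 20.6% of all genes called. DLX5, a homeobox gene of bone and cartilage, read 7.67 and 7.58 in siCon, 6.06 and 5.89 in siCon + IL-1, 7.69 and 7.66 in siHDAC6, and 6.47 and 6.48 in siHDAC6 + IL-1. It fell by 1.65 in siCon cells (adjusted p = 2.3e-05) and by 1.20 in siHDAC6 cells (2.2e-04). PMEPA1, a TGF-β-induced inhibitor of receptor signalling, read 7.82 and 7.77, then 6.57 and 6.76, then 8.24 and 8.29, then 7.50 and 7.60 in the same order of groups. It fell by 1.13 in siCon cells (adjusted p = 2.4e-04) and by 0.71 in siHDAC6 cells (0.0049), while in stimulated cells siHDAC6 raised it by 0.89 (0.0048). These 5 calls of DLX5 and PMEPA1 were kept in all 8 fits without 1 array, and median scaling ended that of PMEPA1 in siHDAC6 cells (-0.67, adjusted p = 0.14). DLX5 was also higher by 0.50 with siHDAC6 in stimulated cells (adjusted p = 0.029, lost without replicate 2 of siCon + IL-1, either siHDAC6 or either siHDAC6 + IL-1 array, up to 0.13).

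SNAI2, a zinc-finger repressor, fell with IL-1 by 1.30 in siCon cells (adjusted p = 4.8e-04, kept whichever array was left out) and by 0.66 in siHDAC6 cells (0.023, lost without either siHDAC6 array or siHDAC6 + IL-1 replicate 1, up to 0.12). The fourth target lowered by IL-1 in siCon cells was CDKN2B, a cell cycle inhibitor named after its values were seen (-0.34, adjusted p = 0.049). The target raised was KLF10, a TGF-β early response gene (0.42, adjusted p = 0.036, lost without either siCon array, replicate 1 of siCon + IL-1 or either siHDAC6 array, up to 0.14). KLF10 changed by 0.14 on the authors' log2 values (adjusted p = 0.080). It was also not called with no background correction (adjusted p = 0.077), an offset of 50 (0.058) or median scaling (0.46). The same held for eBayes with trend and robust (0.13) and the fit on the 4 arrays compared (0.079). KLF10 was near background, with a log2 signal of 5.05 to 5.70 where the lowest of a detected probe was 4.90 to 5.17. HEY1, a Notch- and BMP-responsive repressor, was the target that fell with siHDAC6 in unstimulated cells, by 1.10 (5.96 and 6.15 against 4.74 and 5.17, adjusted p = 0.011), where it was detected on 1 of 2 siHDAC6 arrays. This call was lost without either siCon array or siHDAC6 replicate 1 (up to 0.090).

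**Figure D4:**
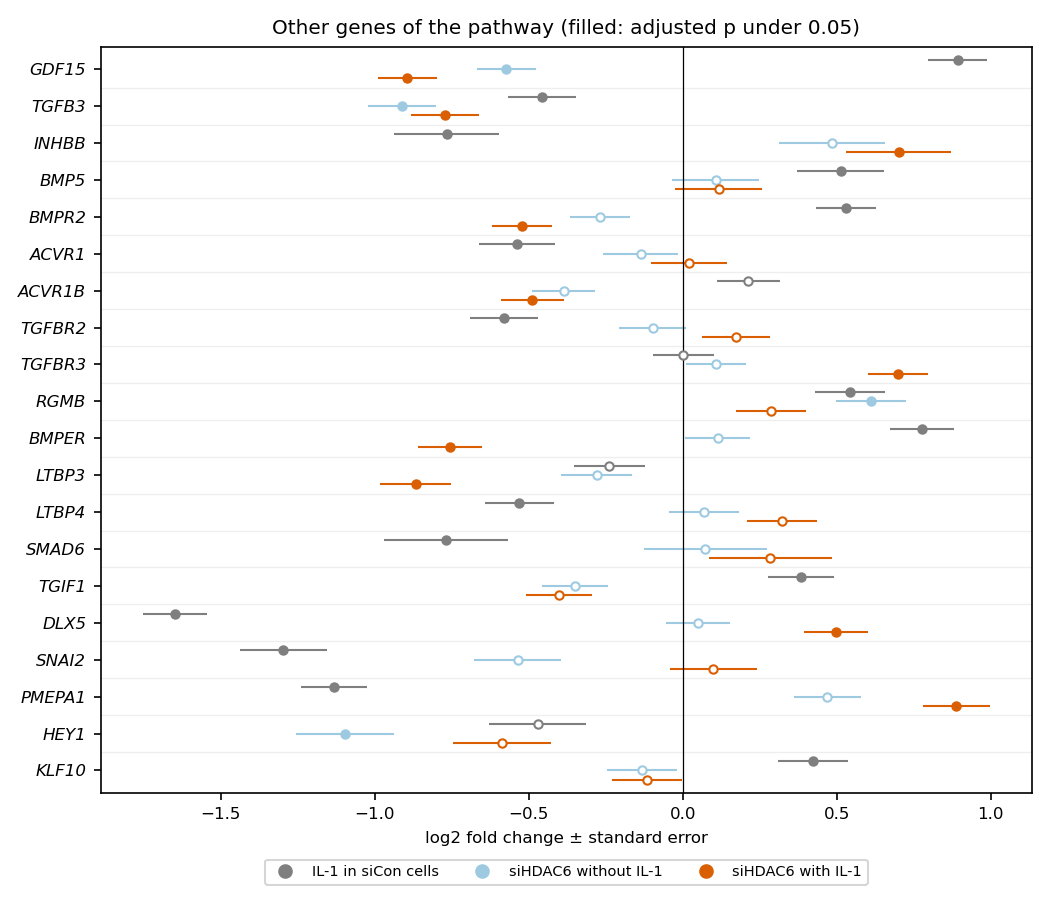
Log2 fold change and standard error (x axis) of the 20 further pathway genes named by rule (y axis), for IL-1 in siCon cells and for siHDAC6 without and with IL-1, with filled points at an adjusted p under 0.05. DLX5 (-1.65), SNAI2 (-1.30) and PMEPA1 (-1.13) fall most with IL-1. With siHDAC6 in stimulated cells GDF15 (-0.89), LTBP3 (-0.87) and TGFB3 (-0.77) fall and PMEPA1 (0.89) rises. With median scaling these 3 falls were not called (adjusted p = 0.095, 0.14 and 0.27), while the PMEPA1 rise was. BMPER passed the detection filter only through siCon + IL-1, so its filled points are a description with no test.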

How the data were processed

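RNA of SW1353 cells was hybridised to 8 Illumina whole-genome arrays. The authors deposited for each probe the signal intensity, neither background-subtracted nor normalized between arrays, with a detection p-value. They also deposited log2 values made with lumi (variance-stabilising transformation and robust spline normalization), used here as an alternative. The duration of IL-1 is that of the labels. The genome build of the probe design is not given in the sources used here.

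The analysis ran in R 4.3.3. limma 3.58.1 (with statmod 1.5.0) supplied neqc with an offset of 16, which corrects the background from the detection p-values, quantile-normalizes and takes log2. Of 48803 probes, 27578 had 1 gene symbol in the platform annotation, 13 several and 21212 none. Probes with a detection p under 0.05 on at least 2 arrays were kept (18045, of which 14483 had 1 symbol) and averaged to 11182 genes. A model with 1 mean per group was fitted with lmFit and eBayes (4 residual and 3.79 prior degrees of freedom). Adjusted p-values are Benjamini-Hochberg over all genes, and a gene was called under 0.05. For a group without any detected array the fold is a bound, from the mean of the bright group and, for each dim array, the higher of its lowest detected log2 signal and the probe's own. Replicates of a group correlated at 0.988 to 0.992, and the number of arrays limits the precision. The workflow was tested on simulated data.

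The members and gene lists were chosen with earlier results of these data known. Named were all members, listed genes called in a siHDAC6 comparison or among the 2 largest called rises or falls of their list with IL-1 in siCon cells, and the 3 genes most like FST, INHBA or a member whose IL-1 response differed. Promoter sequences and gene positions are from RefSeq on GRCh38.p14. Alternatives were the authors' values, an offset of 50, no background correction, no filter or a stricter one (both arrays of a group with a detection p under 0.01), median scaling, single probes, eBayes with trend and robust, fits on 4 arrays, a replicate block and leaving out each array. Figures were drawn with matplotlib 3.10.9. The TSA experiment was not used here.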

Additional observations from a re-analysis of the deposited data

Results flagged for a closer look

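The IL-1 response of FST differed between siCon and siHDAC6 cells by -1.49 on the log2 scale (limma adjusted p = 0.028), which is a test of the difference itself. The response was 1.97 in siCon cells and 0.47 in siHDAC6 cells, and it was higher in siCon cells for both FST probes. The difference was called for ILMN_1700081 (-1.82, adjusted p = 0.011) and not for ILMN_1712896 (-1.17, 0.32), which was near background in siCon. With median scaling the averaged difference was -1.24 and not called (0.36), and it was not called with the replicate block (0.078). Whichever of the 8 arrays was left out, the call was lost (adjusted p = 0.061 to 0.19), with values of -1.59 to -1.40.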

How the results depend on the processing

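Of 15 calls among the 7 genes tested, 5 were kept in all 8 fits without 1 array: FST with IL-1 in siCon cells, and BMP4 and SMAD3 with IL-1 in both kinds of cells. The authors' log2 values, no background correction, an offset of 50, no filter, the stricter filter and eBayes with trend and robust kept all 15. Median scaling kept 11, and it moved the median of all genes to -0.25 for IL-1 in siCon cells, 0.15 for siHDAC6 with IL-1 and 0.22 for the difference, so changes under it are relative to these. The brighter probe alone kept 14, losing FST with IL-1 in siHDAC6 cells (adjusted p = 0.11). Fits on the 4 arrays compared kept 9 of 14, losing BMP2 for siHDAC6 without IL-1 (0.062), FST (0.086), FSTL1 (0.070) and TGFB2 (0.072) for siHDAC6 with IL-1, and FST for IL-1 in siHDAC6 cells (0.069). Members called with siHDAC6 and IL-1 went from 4 to 2 with median scaling and 1 in the 4-array fit, those with siHDAC6 alone from 2 to 1 in the 4-array fit, and the difference from 1 to 0 with median scaling. Deviations of the arrays from their group means did not follow the replicate numbers (correlations -0.04 to 0.05). This cannot show whether the replicates were run as pairs. With the replicate block the counts were 4, 3, 2, 2 and 0, FST being lost for the difference (adjusted p = 0.078), for IL-1 in siHDAC6 cells (0.070) and, with FSTL1 (0.052), for siHDAC6 with IL-1 (0.058). Of all 11182 genes, 2066, 964, 318, 675 and 6 were called with the block. In the 4-array fits 1576, 963, 178 and 276 were called for the first 4 comparisons. Leaving out 1 array gave 4 to 5 members called for IL-1 in siCon cells, 2 to 4 for IL-1 in siHDAC6 cells, 0 to 2 and 0 to 3 for siHDAC6 without and with IL-1, and 0 in every case for the difference.

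The sign turned only for changes that were called under neither setting. For SMAD7 these were IL-1 in siCon cells (-0.288 to 0.059 over the fits without 1 array, above 0 without siCon replicate 1 at 0.036 and without siCon + IL-1 replicate 2), IL-1 in siHDAC6 cells (-0.097 with the brighter probe) and siHDAC6 without IL-1 (0.0053 with the brighter probe, -0.191 to 0.11 without 1 array, above 0 without siCon replicate 1 or siHDAC6 replicate 2). For the difference of the responses these were BMP2 (0.12 with median scaling, -0.407 to 0.073 without 1 array, above 0 without siHDAC6 replicate 1), BMP4 (-0.054 with no filter, -0.0088 to 0.243 without 1 array, below 0 without siCon + IL-1 replicate 1) and SMAD3 (0.071 with median scaling). The cause was not tested.

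Over all genes the calls were 2300, 1148, 453, 902 and 13 for IL-1 in siCon and siHDAC6 cells, siHDAC6 without and with IL-1, and the difference. On the authors' log2 values they were 3091, 1908, 1124, 1692 and 164, with median scaling 1456, 529, 180, 236 and 13, and leaving out 1 array gave as few as 1281, 590, 109, 180 and 0. Calls for IL-1 in siHDAC6 cells were 670 higher and 478 lower, against 837 and 1071 on the authors' values and 432 and 97 with median scaling. Those for siHDAC6 without IL-1 were 183 and 270, against 31 and 149 with median scaling, those with IL-1 408 and 494, against 141 and 95, and those for the difference 1 and 12, against 45 and 119 on the authors' values and 5 and 8 with median scaling. Of the 53 listed genes, 17, 8, 4, 10 and 0 were called, and 17, 14, 14, 12 and 1 on the authors' values. Of the named calls among these, median scaling kept 8 of 16 for IL-1 in siCon cells, 2 of 6 for IL-1 in siHDAC6 cells, 2 of 4 for siHDAC6 without IL-1 and 2 of 10 with IL-1 (PMEPA1 and TGFBR3), and fits on the 4 arrays compared kept 10, 5, 1 and 5. Signals near background limit FST probe ILMN_1712896 in siCon, BMP2 in siHDAC6, TGFB2 and SMAD7. The calls of BMP3, BAMBI and CDKN2B were not followed through the alternatives.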

Other observations

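The members differed in how far a single probe carried the gene. For SMAD7, probe ILMN_2203891 read 6.42 to 6.87 over the 8 arrays and ILMN_2203896 read 4.74 to 5.91. For BMP4, probe ILMN_1740900 read 7.27 to 8.76 while ILMN_1709734 read 4.39 to 4.65, and both are annotated to BMP4. INHBA, GREM1 and TGFB1, tested without the detection filter, were not called in any comparison (adjusted p = 0.33 to 0.99 in limma, with the smallest unadjusted p-value at 0.045).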
